A study of Macaca fascicularis with 3 samples.

Results

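UPK3B-positive mouse somatic cells, candidate ovarian surface epithelial or mesothelial cells, made up 90 of the 4099 mouse somatic barcodes of the 3 libraries, which hold 7827 deposited barcodes in all. They were chosen by measured UMI counts, as barcodes with at least 1000 UMIs (unique molecular identifiers, 1 per captured transcript), under 1% of UMIs in the 13 mitochondrial genes, at least 2 UPK3B UMIs and fewer than 3 UMIs of LTF and EHF together. The E13.5 library held 15 of them among 1643 mouse somatic barcodes, E14.5 held 1 among 717 and E15.5 held 74 among 1739.

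The study made fetal oocytes from cynomolgus monkey embryonic stem cells in xrOvaries, reconstituted ovaries in which the monkey germ cells are aggregated with mouse ovarian somatic cells. The germ cells came from the wild-type line 15XRi-AGVT#7, which carries TFAP2C-EGFP and DDX4-tdTomato reporters, and the aggregates were taken at the culture point labelled ag49+52. The 3 libraries differ in the embryonic day of the mouse ovarian somatic cells put into the aggregate: E13.5, then E14.5, then E15.5, each as 1 library. Values given in threes follow this order of stage. The mouse cells were sorted as live, reporter-negative events of low FSC-W, mixed with sorted germ cells and captured together on 10x Genomics 3' v3.1. The barcodes they are set against share that treatment and are the other mouse somatic barcodes (1628, 716 and 1665). Among these were supporting-like barcodes (972, 474 and 1031), stromal-like barcodes (599, 194 and 567) and barcodes with 3 or more UMIs of LTF and EHF (6, 12 and 6).

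The deposited counts are for 26017 monkey features, so a mouse transcript was seen only where its reads aligned to a monkey gene. Levels are given as CPM, UMIs of a gene per 1000000 UMIs of the barcodes summed, and are compared between groups for 1 gene, not between genes. The UPK3B-positive barcodes held 158902, 8234 and 754196 UMIs. In E14.5 their sum is 1 barcode, in which 1 UMI stands for 121 CPM, so E14.5 values of these cells are given as UMIs, except in sums over a list of genes. With 1 library for each stage, intervals cover counting error only. Cell barcodes occurred in more than 1 library (199 in both E13.5 and E14.5, 643 in both E13.5 and E15.5, 212 in both E14.5 and E15.5), and 0 of them were UPK3B-positive.

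The surface epithelium of the fetal ovary is a single layer of cells derived from the coelomic epithelium and continuous with the mesothelium that lines the body cavity. It rests on a basement membrane, carries microvilli and simple epithelial keratins, and in mouse is a source of supporting cells. UPK3B is a uroplakin, a membrane protein first known from the urinary tract and also a marker of mouse mesothelium and ovarian surface epithelium. LHX9 is a LIM homeobox factor needed for mouse gonad formation, and KRT7 is a type II keratin of simple epithelia.

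UPK3B-positive barcodes made up 0.913% of the mouse somatic barcodes of E13.5 (0.512 to 1.501%, the 95% Clopper-Pearson interval), 0.139% in E14.5 (0.00353 to 0.775%) and 4.26% in E15.5 (3.36 to 5.31%). E15.5 stood above both other libraries, whose intervals overlapped. The other mouse somatic barcodes had medians of 6428.5, 6698.5 and 5255 UMIs. Barcodes were also thinned to 3000 UMIs, with shallower ones left out, which kept 1561, 668 and 1528 mouse somatic barcodes. Among these a UPK3B UMI was found in 0.897%, 0.299% and 4.97% (intervals 0.491 to 1.500%, 0.0363 to 1.08% and 3.94 to 6.19%). Requiring 3 UPK3B UMIs gave 0.730%, 0% and 2.07%, where 0 of 717 E14.5 barcodes allows up to 0.513% by the Clopper-Pearson interval.

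The low E14.5 value depended on the gene that chose the cells. Barcodes with at least 3 UMIs each of LHX9 and KRT19, a choice made after the data were seen, numbered 14, 12 and 95. Their shares were 0.852% (0.467 to 1.43%), 1.67% (0.868 to 2.91%) and 5.46% (4.44 to 6.64%). By this measure the E13.5 and E14.5 intervals overlapped and E15.5 again stood above both. Of the 12 barcodes in E14.5, 1 was UPK3B-positive and 7 had no UPK3B UMI; of the 95 in E15.5, 31 were UPK3B-positive and 45 had no UPK3B UMI. The sort and the mixing with germ cells precede these shares, and their part in the difference between stages was not tested.

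**Figure D1:**
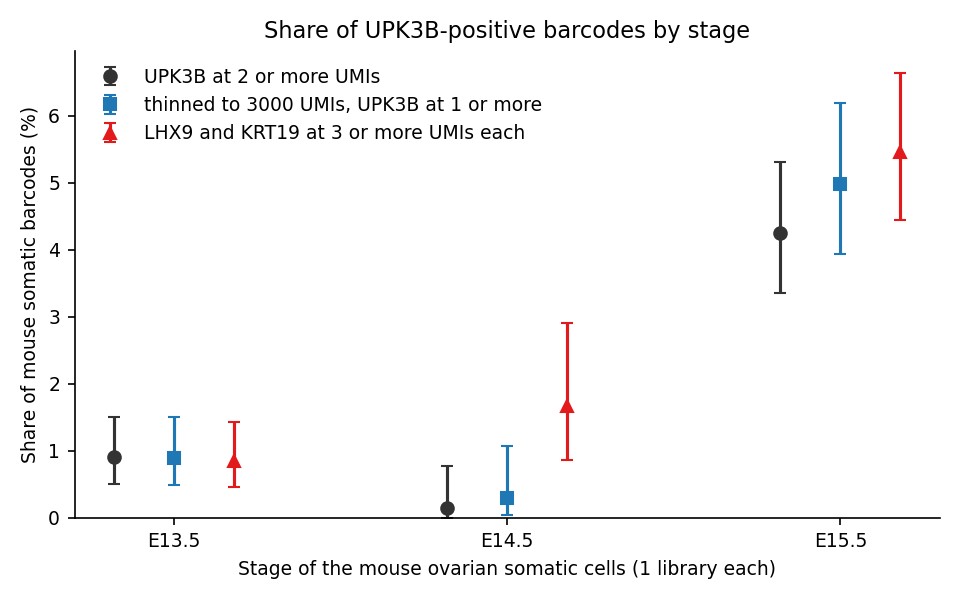
Share of mouse somatic barcodes (%, vertical axis) at each of the 3 stages under 3 choices, with 95% exact intervals for counting error as bars. Black circles are UPK3B at 2 or more UMIs, blue squares UPK3B after thinning to 3000 UMIs and red triangles LHX9 and KRT19 at 3 or more UMIs each; E15.5 is the highest stage under each, and E14.5 reaches 1.67% only with LHX9 and KRT19.

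The values that chose the cells were low counts. The UPK3B-positive barcodes had 2 to 7 UPK3B UMIs, with 42 barcodes at 2 UMIs and 48 at 3 or more, and 79 further mouse barcodes had 1 UMI and lay just outside the rule. Summed UPK3B was 315 CPM in E13.5, 2 UMIs in E14.5 and 296 CPM in E15.5 in the UPK3B-positive barcodes, against 1.39, 1.26 and 5.27 CPM in the other mouse somatic barcodes. Barcodes that are not mouse somatic, mostly the monkey germ cells, had 0.608, 0.361 and 0.472 CPM, with a UMI in 1.66%, 1.39% and 1.76% of them at medians of 43970, 39339 and 41808.5 UMIs. UPK3B chose these cells, so its levels are a description.

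Levels of LHX9 and KRT19 changed little at the cut, and those of some other genes changed more. LHX9 was at 481 CPM in barcodes with 3 or more UPK3B UMIs, 429 CPM at 2 UMIs, 511 CPM at 1 UMI and 38.7 CPM at 0 UMIs. KRT19, a type I keratin of simple epithelia, was at 924, 846, 777 and 75.03 CPM in the same order. KRT7 was at 342, 317, 204 and 12.3 CPM. The 79 barcodes with 1 UPK3B UMI thus lay nearer to the UPK3B-positive barcodes for these 3 genes than to the 3906 barcodes with 0 UMIs. IGFBP2, a growth factor binding protein, fell more evenly, at 232, 198, 113 and 17.5 CPM. INHA, the inhibin alpha subunit of supporting cells, ran the other way, at 299, 119, 144 and 1606 CPM. The stromal factor TCF21 was at 88.8, 179, 263 and 249 CPM, so for it the barcodes with 1 UMI lay with those at 0 UMIs. The count of calls against a reference of barcodes with 0 UPK3B UMIs was 361 higher and 450 lower, within 1.5 times the counts given below.

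**Figure D2:**
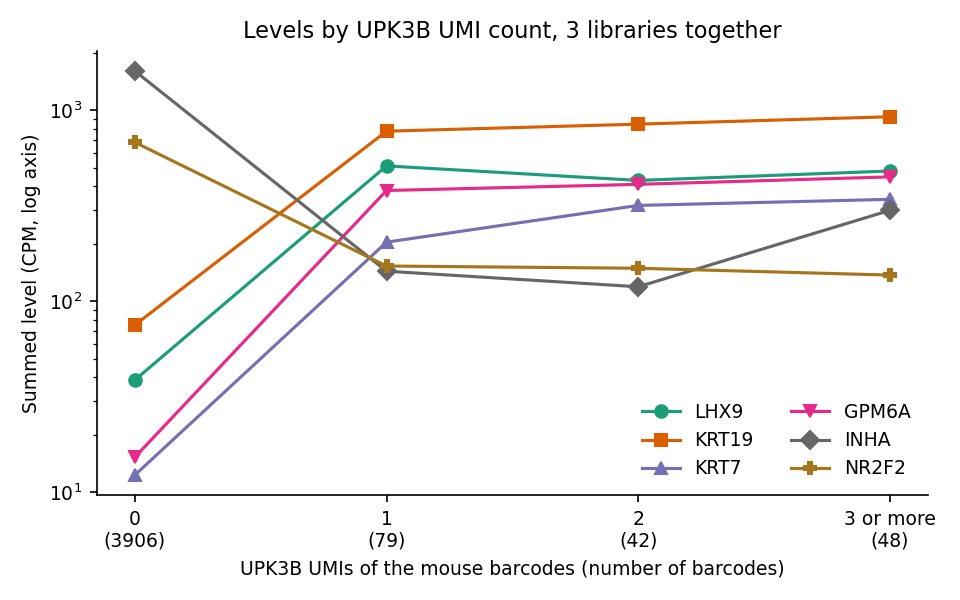
Summed level (CPM, log axis) of 6 genes in mouse somatic barcodes with 0, 1, 2 and 3 or more UPK3B UMIs, the 3 libraries together, with the number of barcodes under each step. LHX9, KRT19, KRT7 and GPM6A step up most between 0 and 1 UMI and change less above it, and INHA and NR2F2 step down at the same place.

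The UPK3B-positive barcodes were compared with the other mouse somatic barcodes by edgeR's quasi-likelihood test on UMIs summed per library, with the library as a block and Benjamini-Hochberg adjustment over all 8630 genes tested. UPK3B, LTF, EHF and the mitochondrial genes were left out because they chose the cells. At an adjusted p under 0.05, 330 genes were higher (3.82% of those tested) and 427 lower (4.95%), together 8.77%. These shares are the background for the counts of each gene list below. Of the 330, 317 were higher in both E13.5 and E15.5 and 146 in 3 of 3 libraries. All 427 were lower in both E13.5 and E15.5, and 406 were lower in 3 of 3 libraries, a direction that 1 barcode with 0 UMIs gives easily in E14.5. In the same way, 1 UMI in that barcode can place a gene higher there. The counts were 80 higher and 43 lower without the E15.5 library, 199 and 182 without E13.5, and 125 and 117 by DESeq2. The fit found no spread between genes beyond a shared trend, so each p rests on that shared spread and not on the gene's own 3 libraries.

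The list of surface epithelial and mesothelial markers held 30 genes, of which 29 were in the features, 25 had a UMI in the UPK3B-positive barcodes and 19 were tested. Of these, 13 were higher and 0 lower, with a median log2 fold change of 1.74, beside -0.13 over all genes tested. LHX9 was at 472 CPM, 12 UMIs and 444 CPM in the UPK3B-positive barcodes, against 28.4, 32.1 and 81.1 CPM in the other mouse somatic barcodes. The groups did not overlap, and the log2 fold change was 3.45 ± 0.31 (SE of the fit, adjusted p = 2.87e-25). Like each p of this comparison, each SE rests on the spread shared between genes and does not measure the gene's own spread over libraries. KRT7 was at 352 CPM, 1 UMI and 329 CPM, against 5.75, 10.5 and 36.5 CPM (log2 4.25 ± 0.32, adjusted p = 1.66e-35). LHX9 and KRT7 were thus both high in the cells that UPK3B chose.

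GPM6A, a neuronal membrane glycoprotein that mesothelial cells also make, was at 327 CPM, 2 UMIs and 455 CPM, against 6.01, 18.4 and 45.4 CPM in the other mouse somatic barcodes, 4.22 ± 0.33 higher on the log2 scale (adjusted p = 6.99e-34). KRT19 was at 850 CPM, 21 UMIs and 880 CPM, against 36.7, 55.2 and 171 CPM (3.73 ± 0.36, adjusted p = 5.25e-22). KRT18, the type I partner of KRT8, was at 283 CPM, 0 UMIs and 179 CPM, against 25.95, 27.6 and 44.1 CPM (2.60 ± 0.30, adjusted p = 7.52e-16). For these 3 genes E13.5 and E15.5 of the UPK3B-positive barcodes lay above every library of the other barcodes. LGR5, a receptor for R-spondins and a marker of mouse ovarian surface epithelium, was higher by 3.05 ± 0.39, C3, complement component 3, by 3.41 ± 0.36 and NKAIN4 by 2.81 ± 0.37 on the log2 scale (adjusted p = 1.00e-12, 3.34e-18 and 8.91e-12).

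Changes of the remaining called markers were smaller or rested on fewer UMIs. EZR, the cortical linker ezrin of microvilli, was at 535 CPM, 5 UMIs and 646 CPM, against 123, 201 and 210 CPM (1.74 ± 0.33, adjusted p = 7.74e-06). WT1, a transcription factor of the coelomic epithelium, was at 220 CPM, 0 UMIs and 233 CPM, against 113, 89.2 and 122 CPM (0.92 ± 0.31, adjusted p = 0.0338). BNC2, a zinc finger protein, was higher by 0.92 ± 0.31 (adjusted p = 0.0375), BNC1, its paralog, by 2.67 ± 0.48 on 13 UMIs in all (adjusted p = 6.10e-05) and KRT8 by 1.63 ± 0.46 (adjusted p = 0.00639). These 5 genes lost the call when 1 library was left out. Without E15.5 the adjusted p was 0.627 for EZR, 0.928 for WT1, 0.940 for BNC2, 0.303 for BNC1 and 0.111 for KRT8. Without E13.5 it was 0.687 for EZR, 0.959 for WT1, 0.871 for BNC2 and 0.449 for KRT8, and without E14.5 it was 0.161 for BNC1. The other 8 called markers kept adjusted p under 0.05 with each library left out in turn.

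Other known markers of the lineage were not seen. MSLN (mesothelin), UPK1B, CDH1 (E-cadherin) and ITLN1 (intelectin) had 0 UMIs in the UPK3B-positive barcodes, which at 3 counts over all of them allows up to 3.26 CPM, and at most 0.541 CPM in any library of the other mouse somatic barcodes. Whether reads of these mouse genes align to the monkey genes was not tested. Of 6 uroplakin features, UPK3B alone had a UMI in the UPK3B-positive barcodes, and in the other mouse somatic barcodes the 6 summed to 1.65, 1.44 and 5.74 CPM, most of it UPK3B. MUC16 had 6.29 CPM, 0 UMIs and 5.30 CPM, against 0.261, 0 and 0.658 CPM, and was under the filter on low counts. ALDH1A2, a retinoic acid-producing enzyme, GATA4, GATA6, EMX2, NR5A1 and EFNA5 did not pass the test. Their adjusted p was 0.290 for ALDH1A2, 0.652 for GATA4, 0.118 for GATA6, 0.884 for EMX2, 0.995 for NR5A1 and 0.450 for EFNA5, and the ALDH1A2 log2 difference was 0.60 ± 0.31.

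**Figure D3:**
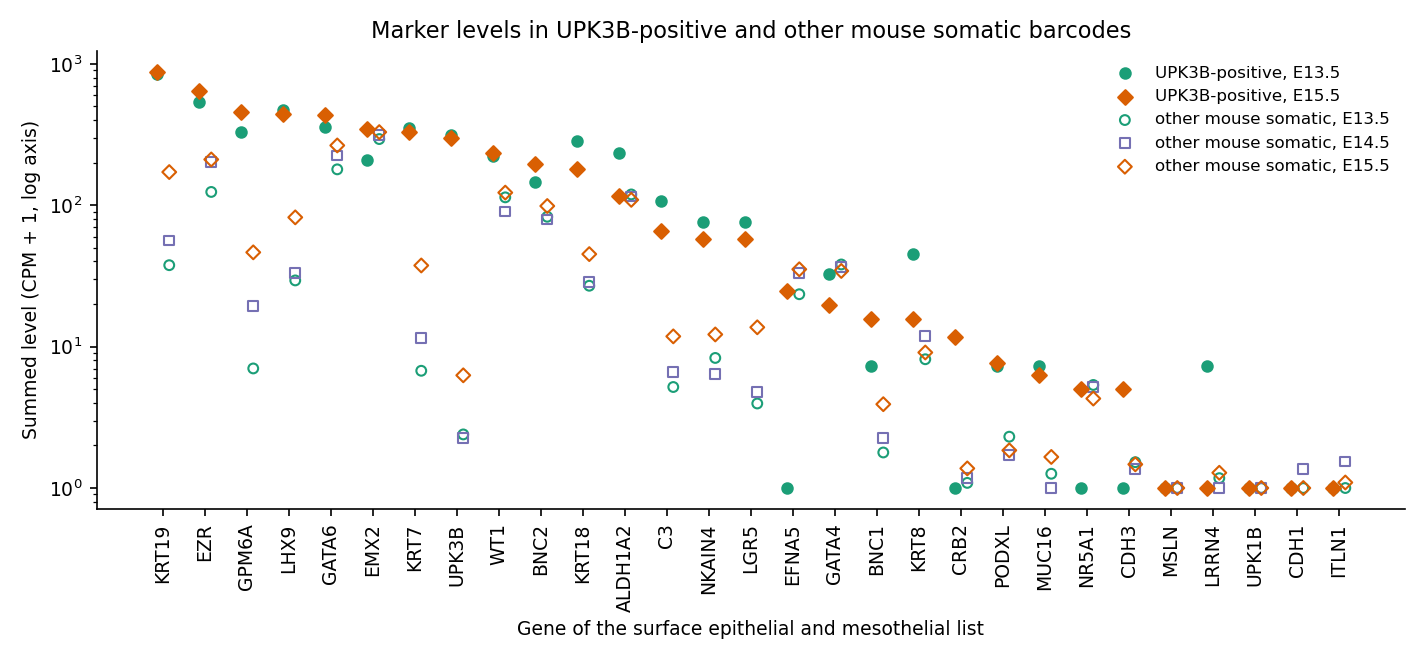
Summed level (CPM + 1, log axis) of the 29 marker genes in the features, ordered by their E15.5 level in UPK3B-positive barcodes. Filled points are UPK3B-positive barcodes of E13.5 and E15.5, left of the open points of the other mouse somatic barcodes at the 3 stages; the E14.5 sum of 1 UPK3B-positive barcode is not drawn. KRT7, KRT19, GPM6A and LHX9 lie far above the open points, and MSLN, UPK1B, CDH1 and ITLN1 lie at 0 CPM (drawn at 1) in the UPK3B-positive barcodes.

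The cells varied among themselves. LHX9 had a median of 4 UMIs in the 15 E13.5 barcodes (range 0 to 12) and of 3 UMIs in the 74 E15.5 barcodes (0 to 18). KRT19 had medians of 5 UMIs (0 to 49) and 6 UMIs (0 to 54), and KRT7 a median of 2 UMIs in both (0 to 14 and 0 to 17). LHX9 was at 0 in 7 of the 90 barcodes, KRT19 in 15 and KRT7 in 13, while 0 barcodes lacked all 3 genes and 57 (63.3%) had a UMI of each. At 3000 UMIs per barcode, LHX9 was found in 73.0% of UPK3B-positive barcodes (62.6 to 81.9%), against 11.4% of supporting-like (10.1 to 12.7%) and 2.27% of stromal-like barcodes (1.49 to 3.31%). The shares before thinning were 92.2%, 19.1% and 3.53%. Thinning left out 1 UPK3B-positive, 63 supporting-like and 214 stromal-like barcodes that were shallower.

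**Figure D4:**
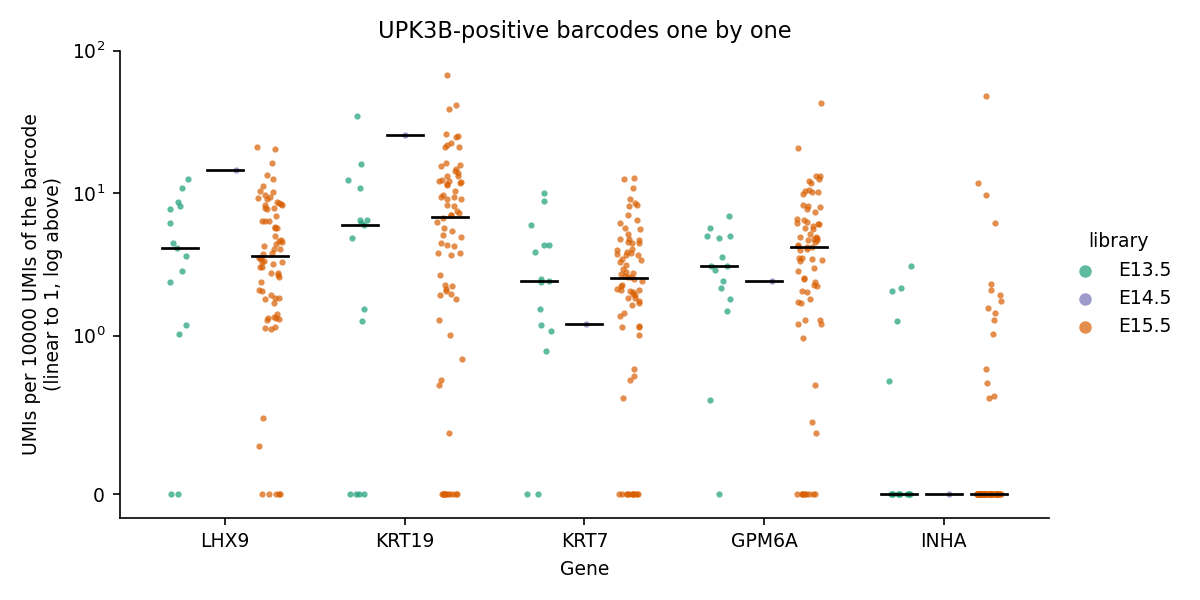
UMIs of 5 genes per 10000 UMIs in each UPK3B-positive barcode (vertical axis linear to 1 and log above), by library, with 15 points in E13.5, 1 in E14.5 and 74 in E15.5; black lines are medians. LHX9, KRT19, KRT7 and GPM6A spread over more than 10-fold with some barcodes at 0, and INHA is at 0 in most barcodes with 4 E15.5 barcodes at 5 or more UMIs.

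Besides the marker list, the genes with the largest differences among those higher in 3 of 3 libraries were led by UNC45B. UNC45B, a myosin chaperone known from striated muscle, was at 107 CPM, 1 UMI and 58.3 CPM, against 0.610, 1.99 and 4.98 CPM in the other mouse somatic barcodes. The log2 fold change was 4.73 ± 0.37 (adjusted p = 2.16e-33), and a UMI was present in 9 of 15 barcodes in E13.5 and 30 of 74 in E15.5. ANGPTL7, a secreted angiopoietin-like protein, was at 62.9 CPM, 9 UMIs and 86.2 CPM, against 1.48, 7.22 and 11.1 CPM (4.10 ± 0.37, adjusted p = 2.34e-25). The voltage-gated potassium channel KCNA1 was higher by 4.05 ± 0.41 and its family's beta subunit KCNAB1 by 3.29 ± 0.34 on the log2 scale (adjusted p = 2.68e-17 and 1.77e-19). KCNA1 had 28 UMIs and 30.4 CPM over all UPK3B-positive barcodes. It met the limits for naming, 3 of 3 libraries and a mean of 50 CPM over libraries, only through 1 UMI in the E14.5 barcode. KCNA1 lost the call when 3 UPK3B UMIs were required (adjusted p = 0.160), and was not among the genes tested without E15.5.

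The kinase STK26 was at 208 CPM, 2 UMIs and 155.1 CPM, against 13.0, 14.8 and 20.2 CPM, and was higher by 3.42 ± 0.30. The adhesion receptor ADGRB2 was higher by 3.40 ± 0.33, the transcription factor SOX6 by 3.30 ± 0.38, the heparan sulfate sulfotransferase NDST4 by 3.21 ± 0.32 and the reticulon RTN1 by 3.16 ± 0.32. Their adjusted p ranged from 4.35e-26 for STK26 to 8.91e-16 for SOX6. SOX6, with 42 UMIs and 45.6 CPM over all UPK3B-positive barcodes, also met the limits for naming only through 1 UMI in the E14.5 barcode. Insulin-like growth factor binding protein IGFBP2, which had 0 UMIs in the E14.5 barcode, was at 378 and 186 CPM in E13.5 and E15.5, against 11.7, 16.1 and 29.9 CPM (3.62 ± 0.30, adjusted p = 2.09e-29). An IGFBP2 UMI was present in 6 of 15 barcodes in E13.5 and 37 of 74 in E15.5, and 56 of the 60 E13.5 UMIs lay in 4 barcodes. The claudin CLDN10 was at 239 CPM, 0 UMIs and 278 CPM, against 5.66, 6.498 and 43.5 CPM (3.67 ± 0.32, adjusted p = 2.70e-27), and was the only 1 of 12 tested junction and polarity genes to pass. Of the 38 CLDN10 UMIs of E13.5, 23 lay in 1 barcode, and 44 of 74 E15.5 barcodes had a UMI.

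Of 13 tested genes of the list of keratins, plakins and other filament or desmosome genes, 6 were higher (KRT5, KRT7, KRT8, KRT18, KRT19 and the plakin PPL), 0 lower and 7 did not pass, with a median log2 fold change of 1.17. KRT13, a type I keratin outside that list, was at 585 CPM, 8 UMIs and 569 CPM, against 16.3, 24.9 and 95.8 CPM (3.88 ± 0.33, adjusted p = 8.05e-28). KRT5 was at 50.3 CPM, 0 UMIs and 41.1 CPM, against 0.348, 0.722 and 5.92 CPM (3.54 ± 0.37, adjusted p = 2.73e-19). Keratins are near copies of each other, and reads of 1 mouse keratin may have been counted on another monkey keratin, so the identity of KRT13, KRT14, KRT5 and KRT19 is uncertain.

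Of 22 tested genes of supporting cells, the pregranulosa lineage, 9 were lower, 11 did not pass and 2 were higher (IRX3, a homeobox factor, with adjusted p of 0.00659 but 0.929 without E13.5 and 0.741 without E15.5, and RSPO1), with a median log2 fold change of -1.21. INHA was at 50.3 CPM, 0 UMIs and 259 CPM, against 1774, 1480 and 1380 CPM in the other mouse somatic barcodes (-3.50 ± 0.50, adjusted p = 2.18e-10). Without E13.5 its adjusted p was 0.0657. Of the 195 INHA UMIs in E15.5, 124 lay in 1 barcode and 175 in the 4 barcodes with the most, while the median UPK3B-positive barcode had 0. FOXL2, the pregranulosa transcription factor, had 2 UMIs in the UPK3B-positive barcodes, all in E15.5, at 2.65 CPM, against 37.1, 35.0 and 27.8 CPM (adjusted p = 4.64e-05, and 0.297 without E15.5). AMH, the hormone of supporting cells, had UMIs in E15.5 alone, at 26.5 CPM, against 180, 251 and 150 CPM. AMHR2, the AMH receptor, differed from this pattern, with 459 CPM, 1 UMI and 378 CPM, against 291, 138 and 363 CPM (0.33 ± 0.33, adjusted p = 0.737). AMHR2 had a UMI in 93.3% of UPK3B-positive and 85.8% of supporting-like barcodes. These shares are before thinning, and AMHR2 is among the genes that choose supporting-like barcodes, so they are a description and not a comparison. The sum of the 6 supporting genes that define supporting-like barcodes exceeded that of the 6 stromal genes, at 3 or more UMIs, in 72 of the 90 barcodes, and the reverse held in 11.

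Of 27 tested stromal genes, 15 were lower, 10 did not pass and 2 were higher, with a median log2 fold change of -1.66 as fitted and -1.36 with the 4 genes at 0 UMIs set to the limit of 3 counts. The matrix gene LUM (lumican) had 0 UMIs in the UPK3B-positive barcodes, against 650 UMIs at 23.5 CPM in the other mouse somatic barcodes, at least 7.22-fold lower (adjusted p = 2.15e-05, and 0.448 without E15.5). DCN (decorin) had 3 UMIs, 40.1-fold lower with a counting interval of 13.7 to 194-fold (adjusted p = 7.22e-14). PRRX1, a mesenchymal homeobox factor, had 1 UMI, 47.4-fold lower (8.49 to 1874-fold; adjusted p = 6.63e-09, and 0.0851 without E15.5). NR2F2, the stromal factor COUP-TFII, was at 107 CPM, 1 UMI and 150 CPM, against 679, 630 and 662 CPM (-2.33 ± 0.40, adjusted p = 5.26e-07, but 0.216 without E13.5 and 0.0852 without E15.5). HAND2, a transcription factor of mesenchyme, was instead higher, at 113 CPM, 0 UMIs and 61.0 CPM, against 11.6, 2.71 and 7.99 CPM (3.13 ± 0.35, adjusted p = 3.48e-16). A HAND2 UMI was present in 5 of 15 E13.5 and 17 of 74 E15.5 barcodes, and 17 of the 18 E13.5 UMIs lay in 4 barcodes.

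Outside those lists, ITIH5, an inter-alpha-trypsin inhibitor heavy chain, had 0 UMIs, against 1473 UMIs at 53.3 CPM in the other mouse somatic barcodes, at least 16.4-fold lower over all UPK3B-positive barcodes (adjusted p = 2.11e-08). SFRP1, a secreted WNT antagonist, had 3 UMIs, all in E15.5, against 215, 293 and 199 CPM (68.9-fold lower, counting interval 23.6 to 334-fold; adjusted p = 1.54e-18). The lipoprotein receptor VLDLR had 2 UMIs, against 108, 108 and 99.3 CPM (48.2-fold lower, 13.3 to 398-fold; adjusted p = 2.80e-13). The potassium channel KCNK2 had 5 UMIs, 32.4-fold lower (13.9 to 99.8-fold; adjusted p = 6.85e-16). The chemokine CXCL14, matrilin MATN2, matricellular SPARCL1, RAS-related RASD1, protease PRSS23 and adhesion molecule NCAM1 had 2 to 5 UMIs each and were also among the 12 genes named as lowest. PRSS23 and NCAM1 lost the call without E15.5, with adjusted p of 0.0553 and 0.0787.

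Signalling genes showed both directions, beside 3.82% higher and 4.95% lower over all genes tested. Of 23 tested WNT pathway genes, 4 were higher (RSPO1, LGR5, AXIN2 and LEF1) and 3 lower (WNT4, RSPO3 and SFRP1). RSPO1, a WNT-potentiating ligand required in the mouse ovary, was at 31.5 CPM, 1 UMI and 23.9 CPM, against 7.40, 4.15 and 5.36 CPM (2.29 ± 0.42, adjusted p = 1.88e-06, and 0.267 without E15.5). RSPO3, another ligand of that family, lost the call without E15.5 (adjusted p = 0.941). Of 28 tested BMP and TGF-beta genes, 6 were lower and 1 was higher (BMP6, 2.34 ± 0.44). The higher count is near its share over all genes, and the lower count is above its share. BMP6 lost the call without E15.5 (adjusted p = 0.0851). The ligands FGF9 and FGF18 were higher by 2.67 ± 0.40 and 3.14 ± 0.35 (adjusted p = 1.50e-09 and 2.41e-16), and FGF9 lost the call without E15.5 (adjusted p = 0.254). Among 21 tested gonadal transcription factors, 7 were higher (WT1, LHX9, SOX9, HAND2, BNC1, BNC2 and ISL1) and 4 lower (TCF21, NR2F2, ZEB1 and ZEB2). ZEB2, a zinc finger repressor, was at 31.5 CPM, 0 UMIs and 21.2 CPM, against 200, 177 and 130 CPM (-2.59 ± 0.42, adjusted p = 5.04e-08, and 0.129 without E15.5).

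Basement membrane genes had 4 lower (LAMA2, LAMB2, NID1 and FBLN1) and 0 higher of 14 tested, and LAMA2 and NID1 lost the call without E15.5 (adjusted p = 0.222 and 0.674), NID1 also without E13.5 (0.326) and without E14.5 (0.0537). Of 11 tested genes of microvilli and the cortex, EZR and the annexin ANXA1 were higher and 0 lower. ANXA1 was at 220 CPM, 1 UMI and 236 CPM, against 36.0, 20.8 and 64.7 CPM (2.22 ± 0.30, adjusted p = 4.12e-11, and 0.0596 without E13.5). Of 15 tested complement and secreted genes, 5 were higher (C3, IGFBP2, IGFBP3, CP and PTGIS) and 3 lower (CXCL12, IGFBP7 and SERPINE2). SERPINE2, with 3 UMIs, lost the call without E13.5 (adjusted p = 0.0605) and without E15.5 (0.462). Among 9 tested targets and partners of YAP, AMOTL2, CRIM1 and F3 were higher and 0 lower, but AMOTL2 and F3 lost the call without E15.5 (adjusted p = 0.596 and 0.778). Among the retinoic acid genes ALDH1A1 was higher, and lost the call without E15.5 (adjusted p = 0.741).

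**Figure D5:**
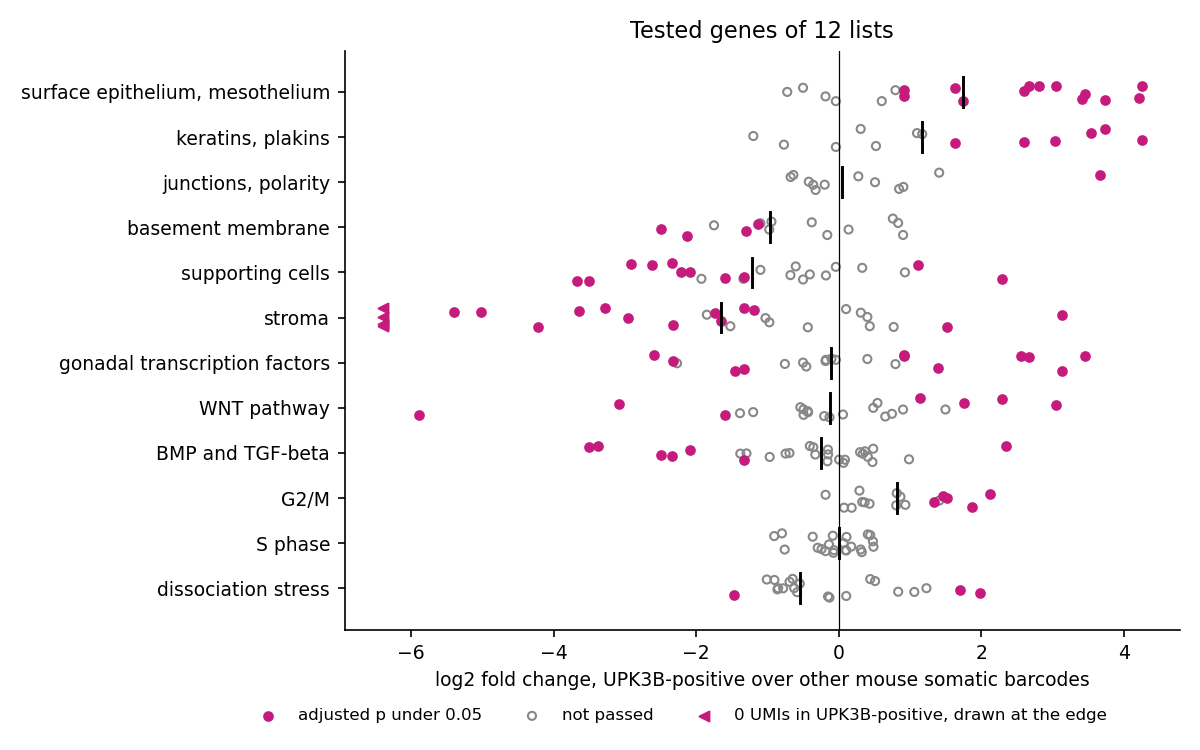
Log2 fold changes of UPK3B-positive over other mouse somatic barcodes (horizontal axis) for the tested genes of 12 lists, 1 point for each gene with vertical scatter only for legibility. Filled points have adjusted p under 0.05, open points do not, arrows are genes with 0 UMIs in the UPK3B-positive barcodes and black bars are list medians. The medians of the surface epithelial and keratin lists lie above 0, and those of the supporting and stromal lists below 0.

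Other cell types were checked by their markers. Of 14 immune markers 13 had 0 UMIs in the UPK3B-positive barcodes, PTPRC among them, and the list summed to 0, 0 and 1.33 CPM, against 1.83, 14.3 and 27.5 CPM in the other mouse somatic barcodes. Of 14 endothelial markers 11 had 0 UMIs, PECAM1 among them, and the sums were 25.2, 0 and 49.1 CPM, against 22.9, 24.0 and 21.2 CPM. KDR, a VEGF receptor, was higher by 2.48 ± 0.39 (adjusted p = 1.94e-08, and 0.741 without E15.5). Of 10 perivascular markers, TAGLN was higher by 1.98 ± 0.33 and MYH11 was lower with 1 UMI (adjusted p = 1.08e-07 and 0.0165), and the list summed to 434, 486 and 182 CPM, against 194, 173 and 133 CPM. All 22 TAGLN UMIs of E13.5 lay in 3 barcodes, and 32 of the 46 of E15.5 in 4 barcodes. MYH11 lost the call without E15.5 (adjusted p = 0.965). Of 25 duct and gland markers, 17 had 0 UMIs and KRT5 alone passed of 4 tested. Germ cell markers summed to 12.6, 0 and 41.1 CPM, against 27.0, 52.3 and 58.5 CPM, and 0 UPK3B-positive barcodes had 3 or more UMIs of DAZL and DDX4. Of 21 tested dissociation stress genes, ATF3 and KLF4 were higher and EGR2 lower, beside 3.82% higher and 4.95% lower over all genes tested. The list summed to 18175, 22711 and 17717 CPM, against 21591, 16402 and 19260 CPM. ATF3 was at 837 CPM, 3 UMIs and 172 CPM, against 109, 140 and 71.7 CPM, with 54 of the 133 UMIs of E13.5 in 1 barcode. ATF3, KLF4 and EGR2 lost the call without E15.5 (adjusted p = 0.289, 0.0750 and 0.741), and ATF3 and KLF4 also without E13.5 (0.621 and 0.897). The part of stress in the other differences was not tested.

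UPK3B-positive barcodes were deeper than the rest, with medians of 10354, 8234 and 8787.5 UMIs, against 6428.5, 6698.5 and 5255 UMIs, a difference that a limit of 2 UPK3B UMIs favours. Against as many other mouse barcodes matched in UMI count, 120 genes were higher and 120 lower of 2385 tested. LHX9 then differed by 2.97 and C3 by 2.78 on the log2 scale, and 11 of the 15 genes named as highest were tested, all with adjusted p under 0.05. WT1 did not pass there (0.69, adjusted p = 0.210).

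The same cells were set against the supporting-like and stromal-like barcodes separately. This fit used the E13.5 and E15.5 sums of UPK3B-positive barcodes and all 3 sums of each other class, with the 6 genes that choose each class left out. Against supporting-like barcodes 480 genes were higher (4.93% of 9737 tested) and 356 lower (3.66%). Against stromal-like barcodes 745 were higher (7.65%) and 699 lower (7.18%). Without E15.5 the counts were 96 and 75 against supporting-like and 157 and 184 against stromal-like barcodes. LHX9 was higher than in supporting-like barcodes by 2.91 ± 0.30 and than in stromal-like barcodes by 4.80 ± 0.35 on the log2 scale (adjusted p = 1.65e-04 and 6.75e-06). KRT7 differed by 4.18 ± 0.57 and 5.44 ± 0.66, and EZR by 1.72 ± 0.13 and 2.85 ± 0.14 (adjusted p from 8.29e-04 for KRT7 to 5.99e-07 for EZR). The marker list had 11 of 21 tested genes higher and 0 lower against supporting-like barcodes, and 15 higher and 0 lower against stromal-like barcodes. The stromal list, without the genes that choose the class, had 7 higher and 2 lower of 22 tested against supporting-like barcodes, and 1 higher and 16 lower against stromal-like barcodes. The supporting list had 1 higher and 5 lower of 16 tested against supporting-like barcodes, and 3 higher and 2 lower against stromal-like barcodes.

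EMX2, a homeobox factor of the urogenital epithelium, differed by -0.37 ± 0.16 against supporting-like barcodes (adjusted p = 0.216) and by 1.94 ± 0.17 against stromal-like barcodes (adjusted p = 2.52e-05). ALDH1A2 differed by 0.24 ± 0.33 (adjusted p = 0.771) and 3.46 ± 0.41 (adjusted p = 1.57e-04). COL3A1, a fibrillar collagen chosen after its values were seen, ran the other way. It was at 1001 CPM in E13.5, 0 UMIs in E14.5 and 1363 CPM in E15.5, with a UMI in 85 of the 90 UPK3B-positive barcodes, and was higher than in supporting-like barcodes by 3.32 ± 0.29 (adjusted p = 4.89e-05). Against stromal-like barcodes it differed by -0.57 ± 0.28 (adjusted p = 0.223). Summed COL1A1 and COL1A2 were higher than in supporting-like barcodes by 1.72 ± 0.20 and 0.95 ± 0.22 and lower than in stromal-like barcodes by -2.86 ± 0.20 and -3.10 ± 0.22 (all with adjusted p of 0.0173 or below). These sums were uneven over barcodes, since 33 of the 35 COL1A1 UMIs of E13.5 lay in 4 barcodes and 113 of the 374 of E15.5 in 1 barcode, and COL1A2 had a UMI in 4 of 15 E13.5 and 37 of 74 E15.5 barcodes.

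VLDLR, PRSS23, LECT1 (chondromodulin), SFRP1, RASD1 and the adaptor GRB14 were the genes lowest against supporting-like barcodes, with 2 to 5 UMIs each in the UPK3B-positive barcodes, against pooled levels of 86.4, 132, 58.1, 60.2, 88.8 and 78.8 CPM in supporting-like barcodes. ITIH5, NRK, ASPN, LUM, COL15A1 and FIBIN, the lowest against stromal-like barcodes, had 0 UMIs, against 180, 99.4, 110, 84.1, 61.3 and 62.6 CPM in stromal-like barcodes. KRT14, a type I keratin of basal cells, headed both sets of higher genes, but 20 of its 30 UMIs came from E13.5 and 15 of these from 1 barcode.

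The 24 barcodes with LTF and EHF, too few to fit, also had high KRT7 and KRT18, and their values stand beside these with 95% Poisson intervals. UPK3B-positive barcodes had 458 CPM of LHX9, 431 CPM of GPM6A and 1288 CPM of COL3A1, against 0 UMIs of each in the LTF and EHF barcodes, which allows up to 12.9 CPM at 3 counts. KRT7 was at 331 CPM, against 219 CPM (163 to 289), KRT18 at 195 CPM, against 331 CPM (261 to 414), and CLDN10 at 269 CPM, against 305 CPM (239 to 385). KRT19 differed more, at 890 CPM, against 125 CPM (83.6 to 179). CLDN7, a claudin of ducts and glands, was at 1.09 CPM, against 129 CPM (87.1 to 184), and INHA at 220 CPM, against 645 CPM (546 to 757). KRT7 and CLDN10 had UMIs in both kinds of barcode, while LHX9, GPM6A and COL3A1 had UMIs in the UPK3B-positive kind alone. LTF and EHF chose those barcodes and are not compared.

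Of 14 genes of the marker list with at least 50 CPM in E13.5 or E15.5 UPK3B-positive barcodes, 0 were 2-fold or more higher in E15.5 and 1 was lower (ALDH1A2), with a median log2 ratio of -0.02. Over all genes at that level, 6.86% were higher and 5.11% lower. LHX9 was at 444 CPM in E15.5, against 472 CPM in E13.5, KRT19 at 880 against 850 CPM and KRT7 at 329 against 352 CPM, log2 ratios of E15.5 over E13.5 of -0.09, 0.05 and -0.10 on CPM + 1. Other called markers differed more, with ratios of -0.71 for C3, -0.66 for KRT18 and 0.47 for GPM6A. The other mouse somatic barcodes moved more for the same genes. In these LHX9 was at 81.1 CPM in E15.5, against 28.4 CPM in E13.5, KRT19 at 171 against 36.7 CPM and KRT7 at 36.5 against 5.75 CPM, log2 ratios of 1.48, 2.19 and 2.47. The other mouse somatic barcodes include those with 1 UPK3B UMI, 16 in E13.5 and 56 in E15.5, in which LHX9 was at 740 and 461 CPM. In barcodes with 0 UPK3B UMIs, those with LTF and EHF left out, LHX9 was at 63.1 CPM in E15.5, against 21.7 CPM in E13.5. KRT19 was at 137 against 33.1 CPM there and KRT7 at 25.1 against 3.18 CPM, so E15.5 was also higher without the barcodes with 1 UMI. The size of the part of the barcodes with 1 UMI in these ratios was not tested. With 1 library for each stage there is no test.

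Of 2973 genes with at least 50 CPM in E13.5 or E15.5 UPK3B-positive barcodes, 204 were 2-fold or more higher in E15.5 (6.86%) and 152 lower (5.11%). The other mouse somatic barcodes, with far more UMIs, had 10 higher (0.342%) and 26 lower (0.889%) of 2923 genes, and 1 UMI in the 15 UPK3B-positive barcodes of E13.5 is 6.29 CPM. The part of counting error in the wider spread was not tested. The median log2 ratio over all genes was 0.05, and 0.18 with TMM and 0.17 with DESeq2 size factors, so a scaling moves all ratios by about that much. Several of the largest ratios came from few barcodes. CDC20, an activator of the anaphase complex, was at 117 CPM in E15.5, against 0 UMIs in E13.5, at least 6.18-fold higher against 3 counts in E13.5, but 48 of its 88 UMIs lay in 1 barcode. CCL5, a chemokine, was at 63.6 CPM in E15.5, against 0 UMIs in E13.5, with 39 of 48 UMIs in 1 barcode. NCAPH2 and DYRK2, also at 0 UMIs in E13.5, were spread wider. Their 56 and 46 UMIs of E15.5 lay in 39 and 28 of 74 barcodes. On the lower side, 13 of the 18 CTGF UMIs of E13.5 lay in 1 barcode, as did 15 of 20 KRT14 UMIs.

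G2/M genes show the same concentration. Of 17 tested, 5 were higher than in the other mouse somatic barcodes (CCNB2, CDC20, CENPF, PLK1 and UBE2C) and 0 lower, and 0 of 22 S phase genes passed in either direction. The G2/M list summed to 151 CPM in E13.5, 0 UMIs in E14.5 and 451 CPM in E15.5, against 153, 177 and 184 CPM. In E15.5, 277 of the 340 UMIs lay in 5 barcodes. Barcodes with 5 or more G2/M UMIs were 1 of 15 in E13.5 and 2 of 74 in E15.5 (6.67% and 2.70%), against 1.84%, 3.77% and 1.74% of the other mouse somatic barcodes, and in the E15.5 barcodes below 5 UMIs the list was at 105 CPM, against 102 CPM. CENPF and UBE2C turned lower when the E15.5 library was left out (log2 fold changes of -0.90 and -0.83) or when 3 UPK3B UMIs were required (-1.57 and -1.31).

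Of 11 BMP and TGF-beta genes with at least 50 CPM in E13.5 or E15.5, 8 were 2-fold or more higher in E15.5 UPK3B-positive barcodes and 0 lower, beside 6.86% higher and 5.11% lower over all genes. Their median log2 ratio was 1.25, beside 0.05 over all genes. ID1, SMAD7, TGFB1, ACVR2B, SMAD6 and ACVR1 were under 50 CPM in E13.5 and met the limit through E15.5 alone. The limit thus fixed the direction of these genes, and the count of 8 and the median are a description. ID1, ID2 and ID3, inhibitors of basic helix-loop-helix factors and direct BMP targets, were at 51.7, 285 and 434 CPM in E15.5, against 0 UMIs, 56.6 CPM and 126 CPM in E13.5. A UMI of ID1 was present in 28 of 74 E15.5 barcodes, against 0 of 15 in E13.5, and of ID3 in 63 of 74, against 9 of 15. The inhibitory SMAD7 was at 51.7 CPM in E15.5, against 6.29 CPM in E13.5, and the pseudoreceptor BAMBI at 229 against 101 CPM. In the other mouse somatic barcodes ID2 was at 312 CPM in E15.5, against 240 CPM in E13.5, and ID3 at 301 against 238 CPM. INHA is another of the 8, and rests on the few E15.5 barcodes given above. TGFB1 and the receptor gene ACVR2B complete the 8, with log2 ratios of 1.25 and 1.08. Several of these ratios rest on few UMIs in E13.5. ID2 had 9 UMIs there, in 3 of 15 barcodes and 7 of them in 1, TGFB1 had 6, ACVR2B 4 and SMAD7 1. The inhibitory SMAD6, also a BMP target, and the receptor genes ACVR1 and BMPR2 stayed under 2-fold, at 0.58, 0.66 and -0.67.

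TCF21, a stromal transcription factor, was at 149.8 CPM in E15.5 UPK3B-positive barcodes, against 31.5 CPM in E13.5, with a UMI in 30 of 74 barcodes, against 3 of 15. In the other mouse somatic barcodes TCF21 was at 250.1 CPM in E15.5, against 282 CPM in E13.5. In the other direction, ALDH1A2 was at 115 CPM in E15.5, against 233 CPM in E13.5, and WNT4, a ligand of the female gonad, at 143 against 296 CPM. The log2 ratios of E15.5 over E13.5 for ALDH1A2 and WNT4 were -1.01 and -1.04, and in the other mouse somatic barcodes -0.13 and 0.40. MTRNR2L5 and the histone gene H4C9 were lower in E15.5 in both groups, by -3.23 and -2.72 in UPK3B-positive barcodes and by -2.97 and -2.28 in the other mouse somatic barcodes. ATF3 and KLF4 of the stress list were at 172 and 94.1 CPM in E15.5, against 837 and 485 CPM in E13.5, where 42 of the 77 KLF4 UMIs lay in 1 barcode, and the part of handling in the stage differences was not tested.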

How the data were processed

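The deposited values are raw UMI counts for each gene and called barcode, which per the file headers the authors produced in Cell Ranger 6.0.1. The genome build is not given in the sources used here. A RefSeq table (T2T-MFA8v1.1) gave symbols to 669 of the 9282 LOC features. Counts were summed per library and group, scaled to CPM, and tested with edgeR 4.0.16 in R 4.3.3 (filterByExpr, TMM, library block, quasi-likelihood), with DESeq2 1.42.0 as an alternative. The tests were also run on simulated data, with mean levels and library sizes taken from these data and a set spread. In the simulated data 100 genes were changed 2-fold and 100 changed 4-fold. Against the other mouse somatic barcodes, 0 and 11 of these were called in the right direction, with 1 false call. Against supporting-like barcodes 5 and 56 were called, with 3 false calls. Whether the set spread matches that of the data was not tested, so these counts do not measure the power of the fits above. A gene that did not pass is therefore not shown to be unchanged. The fit by class was planned for classes with 20 barcodes in each library. This minimum was not met, so 15 in a library was used, chosen after the counts were seen, and stage ratios with the single E14.5 barcode were not made. Doublets were not removed, and barcodes over the 95th percentile of depth were left out as an alternative.

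The barcodes, the gene lists and the comparisons were chosen with earlier results of these data known. Genes named in the text are the marker list, the 15 highest and 12 lowest of those called in the same direction in 3 of 3 libraries with a mean of at least 50 CPM, the 6 highest and 6 lowest against each class and by stage, and called members of each list. LOC features without a symbol were not named, and some genes of the lists are not reported here. Supporting-like and stromal-like barcodes had 3 or more UMIs of FOXL2, AMHR2, WNT4, INHA, FST and IRX3, or of 6 stromal genes, PDGFRA, PDGFRB, TCF21 and NR2F2 among them, and more of that sum than of the other. Stage ratios are log2 of CPM + 1. Alternatives changed the normalization, filter, block, UPK3B limit, reference, depth, mitochondrial limit, germ cell RNA, shared barcodes and libraries used.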

Additional observations from a re-analysis of the deposited data

Results flagged for a closer look

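KRT14 was flagged because it was lower in E15.5 than in E13.5 in UPK3B-positive barcodes and higher in the other mouse somatic barcodes. In UPK3B-positive barcodes it was at 13.3 CPM in E15.5, against 126 CPM in E13.5, a log2 ratio of -3.15 on CPM + 1, while the other mouse somatic barcodes had 2.16 CPM in E15.5, against 0.261 CPM in E13.5, a log2 ratio of 1.33. The difference was not tested, since each stage has 1 library. Of the 20 KRT14 UMIs in E13.5 UPK3B-positive barcodes, 15 lay in 1 barcode.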

How the results depend on the processing

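Against the other mouse somatic barcodes, the counts of 330 genes higher and 427 lower were within 1.5 times under DESeq2 size factors in edgeR, no filter, a limit of 3 UPK3B UMIs, a reference with 0 UPK3B UMIs, and without LTF and EHF, deepest, germ RNA-bearing or shared barcodes. They were 120 and 120 with a reference matched in UMI count (2385 genes tested, fewer by construction), 125 and 117 by DESeq2, and 80 to 474 higher and 43 to 459 lower when a library was left out. With no replicate block, the library term left out, they were 341 and 448. Against supporting-like barcodes, counts without the block were 309 higher and 217 lower, and 96 to 566 and 75 to 413 when a library was left out. Against stromal-like barcodes they were 456 and 505 without the block, and 157 to 803 and 184 to 775. By stage, 67 genes were higher and 65 lower at a minimum of 100 CPM, and 100 were lower with TMM. The share by stage was 1.89%, 1.12% and 7.48% at 1 or more UPK3B UMIs, 0% in E14.5 and 2.07% in E15.5 at 3 or more, and 1.67% in E14.5 and 5.46% in E15.5 with LHX9 and KRT19, chosen after seeing the data. Fitted log2 fold changes with a library left out ran from -7.23 to 0.36 for NR5A1, which did not pass and turned higher without E13.5, and from -0.83 to 2.69 for UBE2C and -0.90 to 2.35 for CENPF, which turned lower without E15.5. UBE2C and CENPF also turned to -1.31 and -1.57 at 3 UPK3B UMIs, and CENPF to -0.48 without the deepest 5% of barcodes. Where no construction is named, the cause was not tested. Depth limits E14.5, with 1 barcode, and E13.5, where 3 counts are 18.9 CPM.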
